A study of Mus musculus with 8 samples.

Results

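*Nos2* and 8 other genes that handle arginine or make itaconate were followed in peritoneal macrophages (pMacs) with and without CD1d, the molecule that presents lipids to NKT cells. The 9 genes, out of 48795 gene IDs in the deposited tables, were *Nos2*, *Arg1*, *Arg2*, *Ass1*, *Asl*, *Slc7a2*, *Odc1*, *Gch1* and *Acod1*. They were chosen by name, and *Nos2* was picked because it was higher in CD1d-KO pMacs, so its difference between the genotypes is described here and not tested. All 9 passed the filter on low counts. Polyadenylated RNA was sequenced from unstimulated pMacs of 4 WT (C57BL/6) mice and 4 CD1d-KO mice, with 1 library for each mouse. The paper describes the WT mice of this experiment as littermate controls, and its methods state that mice were matched for age and sex. CD1d-KO mice lack CD1d in every cell and also lack NKT cells, so an effect of CD1d within the macrophage and an effect of the missing NKT cells cannot be told apart in these libraries. The methods name a strain with both *Cd1d* genes deleted and a floxed *Cd1d* strain crossed to a Cre that is active in all tissues, and do not say which was sequenced.

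Macrophages use arginine in competing ways. Inducible nitric oxide synthase, encoded by *Nos2*, turns arginine into citrulline and nitric oxide and needs tetrahydrobiopterin, whose synthesis starts with the enzyme encoded by *Gch1*. The arginases encoded by *Arg1* (cytosolic) and *Arg2* (mitochondrial) split arginine into urea and ornithine, and *Odc1* encodes the enzyme that commits ornithine to polyamines. *Slc7a2* encodes a carrier that brings arginine into the cell, while *Ass1* and *Asl* encode the enzymes that rebuild arginine from citrulline. *Acod1* encodes the enzyme that makes itaconate from cis-aconitate, an intermediate of the citrate cycle, and like *Nos2* it is a classical target of bacterial products and interferons in macrophages.

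The libraries carry the numbers 1, 2, 3 and 5 in each genotype, and libraries with the same number were treated as a pair, as in the model stated in the methods. The libraries held 13698864 to 19059432 reads assigned to genes. Values below are normalized counts, that is counts scaled to the mean library size after TMM normalization, and log2 fold changes are CD1d-KO over WT. The quasi-likelihood test of edgeR was run on 13040 genes with Benjamini-Hochberg adjustment over all of them, and a gene was called where its adjusted p was below 0.01 and it differed by more than 1.5-fold. The deleted gene *Cd1d1* had 80 to 163 counts in the WT libraries and 0 or 1 count in CD1d-KO replicates 2, 3 and 5, but 80 counts in the library labelled CD1d-KO replicate 1. Main results are therefore also given without replicate 1, which leaves out this pair.

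None of the 8 genes other than *Nos2* was called, against a background of 0.0383% of all genes tested. None of these 8 had an adjusted p under 0.05, a level that 0.406% of all genes reached. The values of the WT and CD1d-KO libraries overlapped for all 9. The groups did not overlap for 1.96% of all genes tested. Apart from *Nos2*, 2 of 8 genes had an unadjusted p under 0.05, *Slc7a2* higher and *Arg1* lower in CD1d-KO pMacs, where 7.35% of all genes were higher and 5.01% lower at that level. The same count, 1 higher and 1 lower, was found without replicate 1, with a background of 5.55% higher and 3.68% lower. The median log2 fold change of these 8 genes was 0.01, beside 0.005 over all genes tested.

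**Figure D1:**
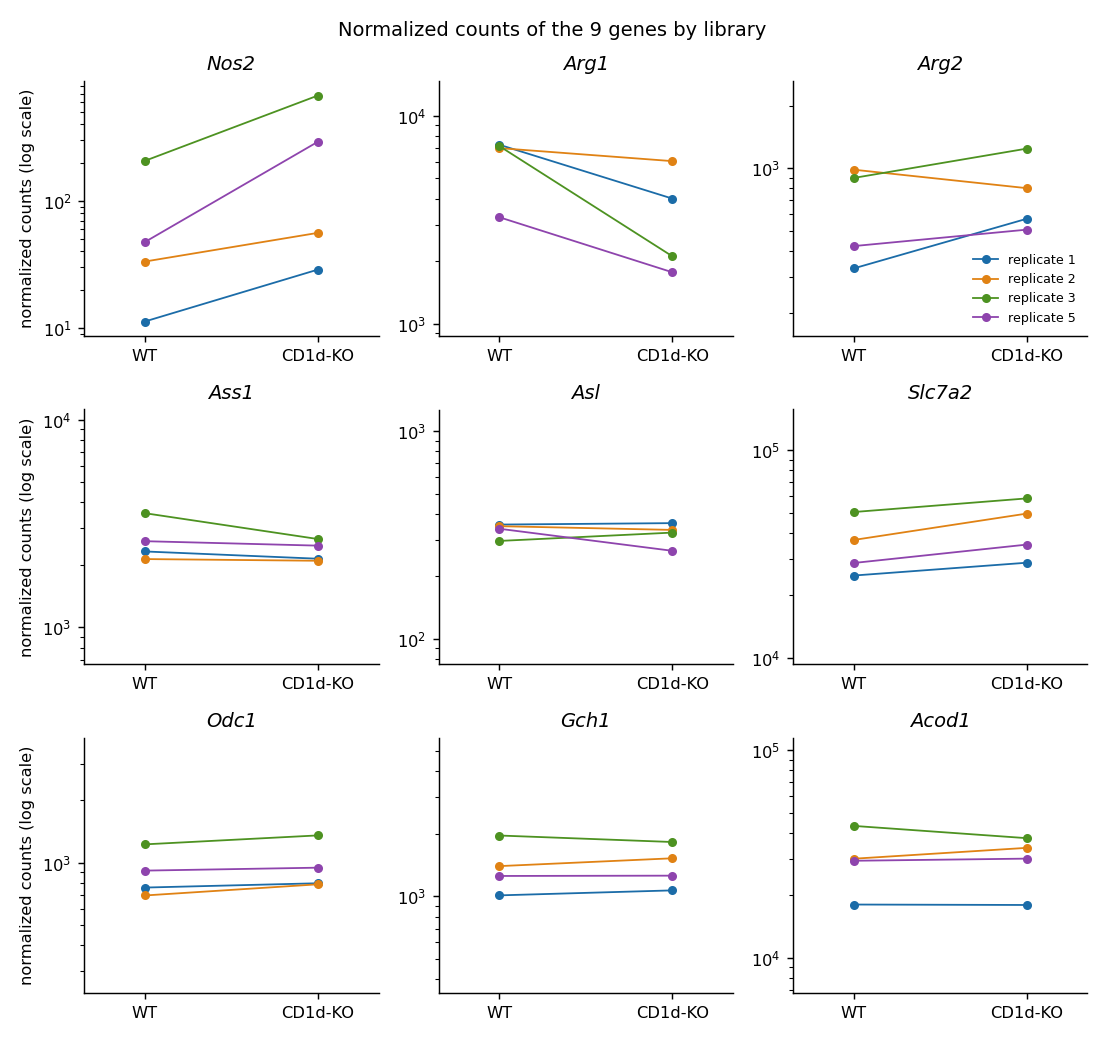
Normalized counts of the 9 genes (log axis) in each library, with 1 point for each mouse, WT and CD1d-KO side by side and a line joining the libraries that share a replicate number. *Nos2* was higher in the CD1d-KO library of 4 of 4 pairs, *Arg1* was lower in 4 of 4, and *Acod1* and *Gch1* followed the replicate number with little difference between the genotypes.

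*Nos2* (ENSMUSG00000020826, protein-coding, chromosome 11 from 78920787 to 78960254 of GRCm38) was scarce in resting pMacs and differed more between mice than between genotypes. WT replicates 1, 2, 3 and 5 held 11.2, 33.3, 207 and 47.4 normalized counts, and CD1d-KO replicates 1, 2, 3 and 5 held 28.8, 56.1, 676 and 292. Replicate 3 was the highest and replicate 1 the lowest library in both genotypes, and 2 CD1d-KO libraries lay within the range of the WT libraries. The CD1d-KO library was above its WT partner in 4 of 4 pairs, by 2.33, 1.64, 3.25 and 5.96-fold for pairs 1, 2, 3 and 5. In TPM, which depends on the transcript length that RSEM assigned, pair 2 turned, with 1.37 in WT and 1.29 in CD1d-KO. The means with their SD were 74.7 ± 89.3 for the 4 WT mice and 263 ± 299 for the 4 CD1d-KO mice, and the fitted log2 fold change was 1.74. These values chose the gene and are a description only. Without replicate 1 the log2 fold change was 1.80, and over the alternatives fitted to counts it ran from 1.38 to 1.98. A fit to log2(TPM + 1) with limma gave 0.96, on a scale where the added 1 is close to the WT median of 1.26 TPM.

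The read numbers behind *Nos2* were small in most libraries. WT replicates 1, 2, 3 and 5 had 15, 31, 172 and 45 reads and CD1d-KO replicates 1, 2, 3 and 5 had 38, 49, 575 and 266. The exact 95% Poisson interval of the 15 reads in WT replicate 1 ran from 8.40 to 24.7 and that of the 38 reads in CD1d-KO replicate 1 from 26.9 to 52.2, and both cover counting error only. In pair 2 the intervals of the reads overlapped, with 21.1 to 44.0 for WT and 36.3 to 64.8 for CD1d-KO. Normalized counts of *Nos2* spanned an 18.4-fold range over the WT libraries and a 23.4-fold range over the CD1d-KO libraries. The SD of log2 *Nos2* among WT mice was above that of 99.2% of all genes tested.

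*Arg1* (ENSMUSG00000019987, chromosome 10 from 24915221 to 24927484), the arginase that is a classical marker of alternatively activated macrophages, was lower in the CD1d-KO library of 4 of 4 pairs and did not pass the threshold. It had 7271, 7002, 7165 and 3254 normalized counts in WT replicates 1, 2, 3 and 5, and 3999, 6061, 2109 and 1767 in CD1d-KO replicates 1, 2, 3 and 5. WT replicate 5 stood below the other WT libraries and below CD1d-KO replicates 1 and 2, so the groups overlapped. The means with their SD were 6173 ± 1949 for the 4 WT mice and 3484 ± 1979 for the 4 CD1d-KO mice, a log2 fold change of -0.92 (standard error 0.21, 95% interval -1.42 to -0.43, adjusted p = 0.144 from edgeR). The pairs differed widely, with log2 ratios of -0.86, -0.21, -1.76 and -0.88 for pairs 1, 2, 3 and 5. Of all genes tested, 10.1% were lower in 4 of 4 pairs. Without replicate 1 the log2 fold change was -0.95 (adjusted p = 0.341), and *Arg1* passed the thresholds only when the filter on low counts was dropped (log2 fold change -0.93, adjusted p = 8.2e-05). Over all alternatives its adjusted p ran from 8.2e-05 to 0.997.

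*Arg2* (ENSMUSG00000021125, chromosome 12 from 79130777 to 79156301) did not follow *Arg1*. WT replicates 1, 2, 3 and 5 had 329, 984, 898 and 422 normalized counts and CD1d-KO replicates 1, 2, 3 and 5 had 571, 802, 1244 and 506. The CD1d-KO library was higher in 3 of 4 pairs and lower in pair 2, and the log2 fold change of 0.31 (95% interval -0.06 to 0.67) did not pass the test (adjusted p = 0.482 from edgeR). It was 0.15 without replicate 1 (adjusted p = 0.821) and 0.52 without replicate 2 (adjusted p = 0.0791). The adjusted p ran from 0.0791 to 0.997 across the alternatives. On the TPM scale, which is per transcript length, *Arg1* made up 95.5, 87.3, 88.5 and 88.2% of the arginase transcripts in WT replicates 1, 2, 3 and 5. In CD1d-KO replicates 1, 2, 3 and 5 its share was 87.1, 88.0, 62.1 and 77.1%. Its lowest shares were thus those of CD1d-KO replicates 3 and 5, the libraries with the highest *Nos2*, and the shares of the other CD1d-KO libraries lay close to those of WT replicates 2, 3 and 5.

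*Slc7a2* (ENSMUSG00000031596, chromosome 8 from 40862396 to 40922308), the arginine carrier, was among the most abundant transcripts of these cells and was higher in the CD1d-KO library of each pair by a small and even margin. It had 24890, 36927, 50337 and 28609 normalized counts in WT replicates 1, 2, 3 and 5, and 28696, 49489, 58556 and 35084 in CD1d-KO replicates 1, 2, 3 and 5. The log2 ratios of the pairs were 0.21, 0.42, 0.22 and 0.29, while the 4 WT mice spanned a 2.02-fold range. The log2 fold change was 0.29 (standard error 0.08, 95% interval 0.09 to 0.48, adjusted p = 0.216 from edgeR and 0.0142 from DESeq2), and over all alternatives the adjusted p ran from 0.0142 to 0.997. Without replicate 1 the log2 fold change was 0.31 (adjusted p = 0.447 from edgeR). Of all genes tested, 10.6% were higher in 4 of 4 pairs.

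The enzymes that rebuild arginine from citrulline differed little between the genotypes. *Ass1* (ENSMUSG00000076441, chromosome 2 from 31470207 to 31520672) had 2322, 2134, 3550 and 2602 normalized counts in WT replicates 1, 2, 3 and 5 and 2142, 2095, 2665 and 2477 in CD1d-KO replicates 1, 2, 3 and 5. It was lower in 4 of 4 pairs, most in pair 3, where WT held the highest value of all, and its log2 fold change was -0.16 (95% interval -0.35 to 0.03, adjusted p = 0.489 from edgeR). *Asl* (ENSMUSG00000025533, chromosome 5 from 130011258 to 130029247) lay between 296 and 354 in WT and between 265 and 360 in CD1d-KO pMacs, a log2 fold change of -0.06 (95% interval -0.29 to 0.17, adjusted p = 0.855 from edgeR). Its WT values spanned only a 1.20-fold range.

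*Odc1*, *Gch1* and *Acod1* tracked the replicate number. *Odc1* (ENSMUSG00000011179, chromosome 12 from 17544794 to 17551505) lay between 697 and 1228 normalized counts in WT and between 788 and 1356 in CD1d-KO pMacs. It was higher in 4 of 4 pairs by a log2 fold change of 0.11 (95% interval -0.04 to 0.25, adjusted p = 0.536 from edgeR). *Gch1* (ENSMUSG00000037580, chromosome 14 from 47153895 to 47189413) had 1012, 1399, 1965 and 1254 in WT replicates 1, 2, 3 and 5 and 1069, 1526, 1828 and 1259 in CD1d-KO replicates 1, 2, 3 and 5. Each CD1d-KO library stood near its WT partner, and the log2 fold change was 0.03 (95% interval -0.13 to 0.18, adjusted p = 0.922 from edgeR).

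*Acod1* (ENSMUSG00000022126, chromosome 14 from 103046977 to 103056573), the itaconate enzyme, was abundant in unstimulated pMacs of both genotypes. Its normalized counts were 18042, 29986, 43157 and 29319 in WT replicates 1, 2, 3 and 5, and 17954, 33833, 37665 and 30021 in CD1d-KO replicates 1, 2, 3 and 5. Replicate 1 was lowest and replicate 3 highest in both genotypes, a 2.39-fold range among WT mice. The means with their SD were 30126 ± 10271 for the 4 WT mice and 29868 ± 8534 for the 4 CD1d-KO mice. The log2 fold change was 0.001 with a 95% interval from -0.21 to 0.21 (adjusted p = 0.996 from edgeR), which bounds a difference between the genotypes at this size in either direction but does not show that the levels were equal.

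**Figure D2:**
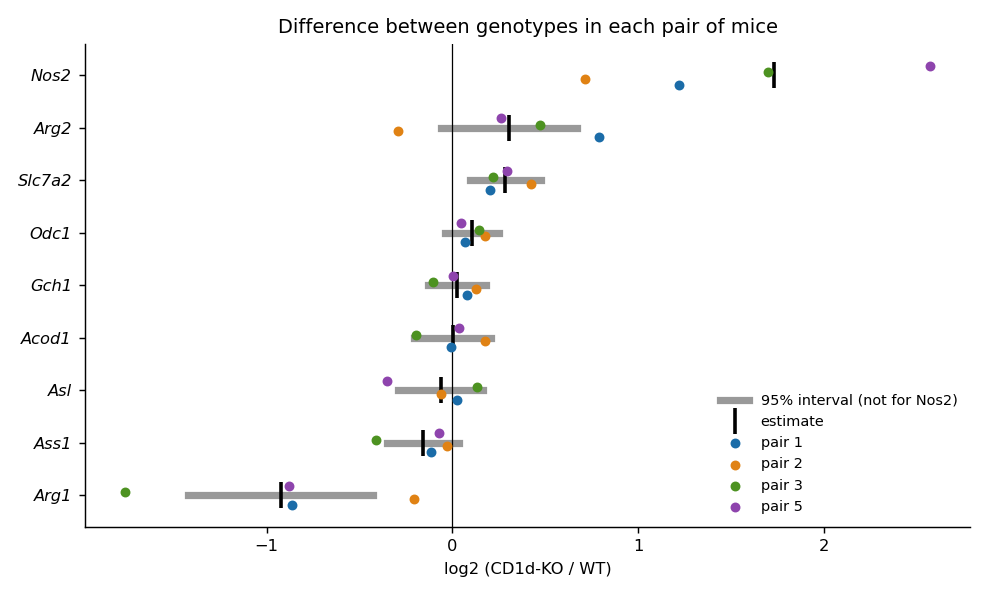
Log2 ratio of the CD1d-KO to the WT library for each of the 4 pairs (coloured points) with the fitted log2 fold change (black bar) and its 95% interval (grey, not drawn for *Nos2*, which was chosen by this value). The pairs of *Nos2* run from 0.72 to 2.57 and those of *Arg1* from -1.76 to -0.21, while the intervals of *Gch1*, *Acod1*, *Asl*, *Ass1*, *Odc1* and *Arg2* include 0.

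Levels of different genes were compared in TPM. In WT pMacs the order by median was *Acod1* (1126 TPM, range 822 to 1622), *Slc7a2* (539, 484 to 802), *Arg1* (479, 233 to 604), *Ass1* (172, 126.5 to 214), *Gch1* (47.5), *Arg2* (47.5), *Odc1* (36.4), *Asl* (24.3) and *Nos2* (1.26, range 0.32 to 5.64). *Acod1* ranked 85 and *Nos2* 11322 among the 13040 genes tested. The WT ranges of *Slc7a2* and *Arg1* overlapped, as did those of the neighbours from *Gch1* to *Asl*, so the order within these groups is not resolved. In CD1d-KO pMacs the medians were 1263 for *Acod1*, 725 for *Slc7a2*, 230 for *Arg1*, 153 for *Ass1*, 52.2 for *Arg2*, 51.9 for *Gch1*, 38.9 for *Odc1*, 20.4 for *Asl* and 5.16 for *Nos2*.

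The ratio of their TPM values was 1887, 342, 87.0 and 202 in WT replicates 1, 2, 3 and 5 and 411, 319, 9.20 and 15.0 in CD1d-KO replicates 1, 2, 3 and 5. Transcripts of *Arg1* outnumbered those of *Nos2* in all 8 libraries. The choice of *Nos2* for its rise bears on the difference of this ratio between the genotypes, which is a description only. The TPM of *Nos2* rests on the transcript length that RSEM assigned, which was 4192 bases in 5 libraries and 2359, 3582 and 3555 bases in WT replicate 2, WT replicate 3 and CD1d-KO replicate 5.

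**Figure D3:**
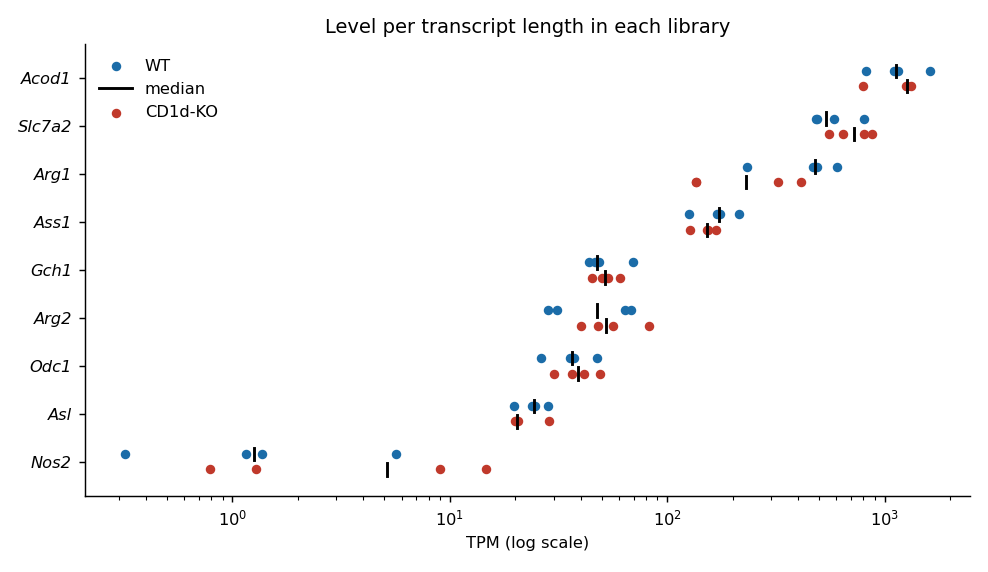
TPM (log axis) of the 9 genes in each library, ordered by their WT median, with 1 point for each mouse and a bar at the median of each genotype. *Acod1* sits between 799 and 1622 TPM and *Nos2* between 0.32 and 14.7 TPM. The *Arg1* points of CD1d-KO replicates 3 and 5 coincide.

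The replicate number took the largest share of the variation of each of these genes. It has more degrees of freedom than genotype, so its share is larger even where neither has an effect. Of the sum of squares of log2 CPM over the 8 libraries, the replicate number took 97.6% for *Acod1*, 98.0% for *Gch1*, 96.4% for *Odc1* and 87.5% for *Slc7a2*, beside a median of 64.8% over all genes tested. Genotype took 36.5% for *Arg1* and 18.8% for *Nos2*, where the replicate number took 50.6% and 77.6%, and 11.5% or less for the other 7, with a median of 7.14% over all genes. For *Asl*, at 53.6%, and for *Arg1* the share of the replicate number lay below its median over all genes tested. The labels do not say what a replicate number stands for beyond the pair.

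**Figure D4:**
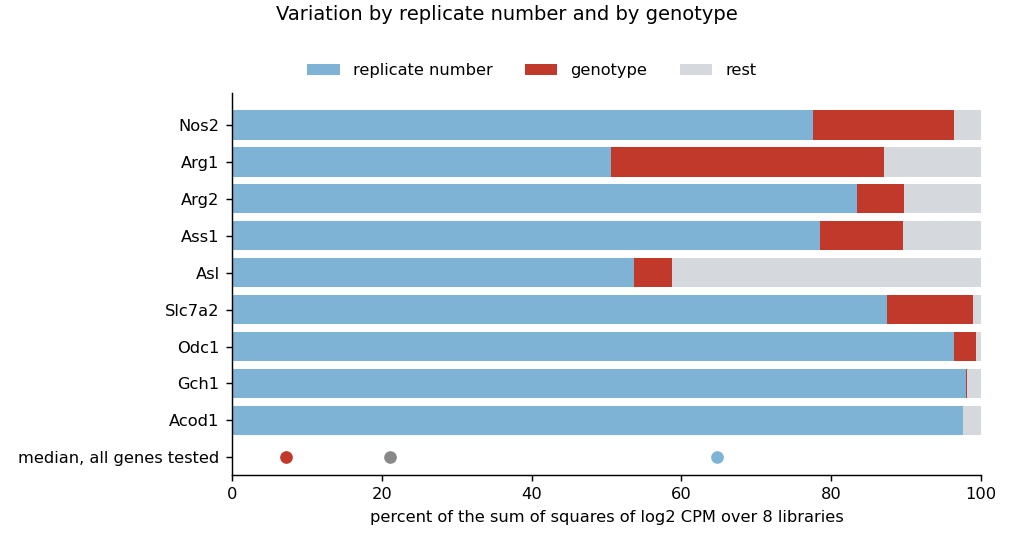
Share of the variation of log2 CPM over the 8 libraries that goes with the replicate number, with genotype and with neither, as stacked bars in percent for the 9 genes. The points in the bottom row are the medians of the same shares over all genes tested. Genotype takes its largest share, 36.5%, in *Arg1* and less than 1% in *Gch1* and *Acod1*.

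The members were also correlated over the 8 libraries, which are 4 pairs and share their replicate number, so the values of Pearson's r that follow are a description. *Acod1* and *Gch1* had r = 0.94, *Gch1* and *Slc7a2* 0.94, *Slc7a2* and *Arg2* 0.88, *Acod1* and *Slc7a2* 0.86, and *Odc1* and *Nos2* 0.86. *Arg1* and *Nos2* had r = -0.65 and *Asl* and *Nos2* -0.72. Both genotypes entered these values, so the choice of *Nos2* for its rise bears on its r with the other genes. The reference table of RefSeq promoters for GRCm38.p6 held 4 of the 9 genes (*Ass1*, *Odc1*, *Gch1* and *Acod1*). Windows before the RefSeq starts of *Acod1* (chr14:103046762-103046991, plus strand) and *Gch1* (chr14:47189414-47189663, minus strand) are shown because these genes had the closest levels over the libraries. They are printed 5′ to 3′, and the capitals mark matches to a simple form of the NF-kB site (GGG, then any 5 bases, then CC) and to TATAAA on either strand.
Acod1: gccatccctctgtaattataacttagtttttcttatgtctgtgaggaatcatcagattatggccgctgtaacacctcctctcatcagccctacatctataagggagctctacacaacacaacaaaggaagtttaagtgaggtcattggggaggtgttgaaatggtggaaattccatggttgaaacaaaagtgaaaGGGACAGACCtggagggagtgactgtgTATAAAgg
Gch1: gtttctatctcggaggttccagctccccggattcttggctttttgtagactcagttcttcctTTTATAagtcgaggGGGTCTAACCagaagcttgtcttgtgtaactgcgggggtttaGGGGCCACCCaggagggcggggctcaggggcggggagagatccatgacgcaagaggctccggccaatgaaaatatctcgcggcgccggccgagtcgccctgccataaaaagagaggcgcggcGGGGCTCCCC

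The *Acod1* window held TATAAA 28 bases before the RefSeq start site and the NF-kB form 55 bases before it. The GENCODE position of *Acod1* given above starts at 103046977, ahead of the RefSeq start. By that annotation the last bases of the printed window, TATAAA among them, lie inside the gene. The *Gch1* window held the NF-kB form at 174, 132 and 10 bases before the start, and TATAAA at 188 bases before it on the opposite strand. Among 32851 promoter windows of 300 bases, 50.8% held the NF-kB form and 13.6% held TATAAA, so these letters are common. The core of an interferon response element (GAAA, any 2 bases, GAAA), TTCNNNGAA, the core of a STAT site, and TTNNGNAAT, a C/EBP-like form, had no match in the windows of the 4 genes, and were held by 3.44, 8.3 and 11.5% of all windows. Both strands were searched, the motifs may overlap one another, and a match is not evidence of binding.

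The other genes of the pathway were described from lists by counts, and edgeR with the filter on low counts called none of them. DESeq2, which called 0.795% of all genes, called 1 higher and 1 lower gene of arginine transport, 1 higher classical activation gene and 2 lower alternative activation genes. For this list and those that follow, the background at an unadjusted edgeR p under 0.05 was 7.35% of all genes higher and 5.01% lower. Without replicate 1 it was 5.55% higher and 3.68% lower. For nitric oxide synthases and cofactor synthesis, 9 of 15 genes were tested, with a median log2 fold change of -0.14. At that level 1 was higher and 1 lower, and without replicate 1 there was 1 higher and 0 lower. *Spr* of the synthesis route had a log2 fold change of -0.42 (adjusted p = 0.376 from edgeR) and *Pcbd2* had -0.38 (adjusted p = 0.556). The neuronal and endothelial synthases *Nos1* and *Nos3* and the *Gch1* regulator *Gchfr* were too low to test.

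Over these lists *Slc7a7* and *Gatm*, both tied to arginine, had the smallest adjusted p. Of 13 genes for arginine transport and the urea cycle, 8 were tested, and at an unadjusted p under 0.05 there were 2 higher and 2 lower, both with and without replicate 1, with medians of -0.10 and -0.06. *Slc7a7*, a carrier that exchanges arginine for neutral amino acids, had 287, 339, 602 and 418 normalized counts in WT replicates 1, 2, 3 and 5 and 613, 473, 1065 and 671 in CD1d-KO replicates 1, 2, 3 and 5. It was higher in 4 of 4 pairs with a log2 fold change of 0.77 (standard error 0.10, adjusted p = 0.0381 from edgeR), short of the threshold of 0.01 (0.406% of all genes had an adjusted p under 0.05). Without replicate 1 it was 0.67 (adjusted p = 0.0878), and DESeq2 called it (adjusted p = 2.0e-05). *Gatm*, which passes the amidino group of arginine on to make creatine, had 618, 372, 258 and 278 in WT and 395, 257, 170 and 148 in CD1d-KO pMacs in the same order of replicates. It was lower in 4 of 4 pairs by a log2 fold change of -0.67 (SE 0.09, edgeR adjusted p = 0.0399). Without replicate 1 it was -0.67 (adjusted p = 0.154), and DESeq2 called it too (adjusted p = 0.00117). Over all alternatives the adjusted p of *Slc7a7* ran from 1.4e-05 to 0.997 and that of *Gatm* from 2.9e-04 to 0.997. The carrier *Slc7a1* had a log2 fold change of 0.39 (adjusted p = 0.179), and *Cps1*, *Otc* and *Agmat* were at 0 counts in all 8 libraries.

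Of the polyamine and proline genes, 17 of 18 were tested, with 1 higher and 3 lower at an unadjusted p under 0.05 (median log2 fold change -0.12), and without replicate 1 there were 1 higher and 2 lower. *Aldh18a1*, which starts proline synthesis, had a log2 fold change of 0.35 (adjusted p = 0.167 from edgeR), while *Paox*, which breaks down acetylated polyamines, had -0.51 (adjusted p = 0.246) and *Amd1* had -0.22 (adjusted p = 0.349). The list for itaconate and citrate steps, all 23 tested, had 1 higher and 6 lower (median -0.05), and 9 of the 23 were lower in 4 of 4 pairs, where 10.1% of all genes were. *Idh1*, the cytosolic isocitrate dehydrogenase, had a log2 fold change of -0.40 (adjusted p = 0.0728), *Got1* 0.37 (adjusted p = 0.185) and *Fh1*, fumarase, -0.29 (adjusted p = 0.233). Without replicate 1 the citrate list had 1 higher and 4 lower.

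Of 23 factors that govern *Nos2* and *Acod1*, 7 were higher and 1 lower at an unadjusted p under 0.05 (median log2 fold change 0.13). Without replicate 1 the count was 6 higher and 1 lower. Beside the counts of these lists, 7.35% of all genes were higher and 5.01% lower at that level, or 5.55% and 3.68% without replicate 1. *Irf7*, the interferon regulatory factor, had a log2 fold change of 0.90 (adjusted p = 0.150 from edgeR), *Jak2* had 0.44 (adjusted p = 0.0827) and *Irf8* -0.43 (adjusted p = 0.101). Of 16 tested classical activation genes, 7 were higher and 0 lower (median 0.25), and without replicate 1 there were 5 higher and 1 lower. *Ccl5* had 1.15 (adjusted p = 0.0501), *Cd40* 0.58 (adjusted p = 0.172) and *Socs3* 0.32 (adjusted p = 0.148). Of 15 alternative activation genes, 0 were higher and 5 lower, both with and without replicate 1, with medians of -0.12 and -0.24, led by *Cd163* at -1.03 (adjusted p = 0.149), *Ccl24* at -0.76 (adjusted p = 0.121) and *Egr2* at -0.56 (adjusted p = 0.115). Of the genes named here, DESeq2 called *Ccl5*, *Ccl24* and *Cd163*. All of these lists were chosen with earlier results of these data known.

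**Figure D5:**
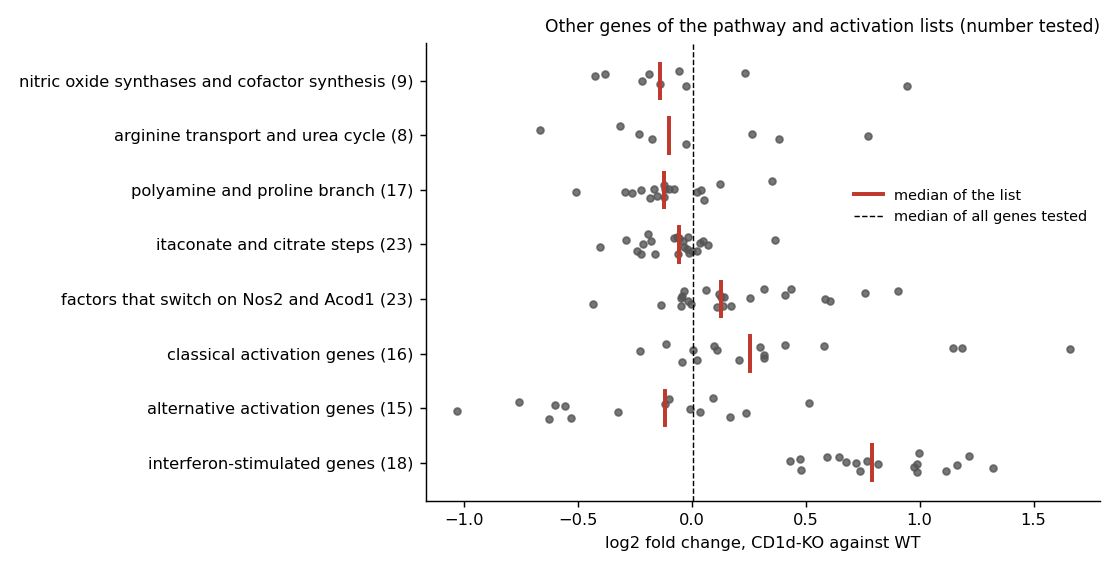
Log2 fold change, CD1d-KO against WT, of each tested gene in 8 lists (1 point for each gene), with the median of the list in red and the median of all genes tested as a dashed line. The interferon-stimulated genes all lie right of 0, from 0.43 to 1.32, while the lists of enzymes spread on both sides.

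The interferon-stimulated genes, whose products limit viruses and which respond to the same signals as *Nos2*, were higher in CD1d-KO pMacs at the unadjusted level. All 18 were higher with an unadjusted edgeR p under 0.05 (median log2 fold change 0.79), where 7.35% of all genes were higher at that level. Of the 18, 12 were higher in 4 of 4 pairs, beside 10.6% of all genes. With edgeR 0 passed the threshold, the smallest adjusted p being 0.194, for *Zbp1* with a log2 fold change of 0.98, and DESeq2 called 0. Without the filter on low counts edgeR called 13 of the 18, a setting that called 236 genes over the whole table where the main fit called 5. Without replicate 1, 12 of 18 were higher with an unadjusted edgeR p under 0.05, beside 5.55% of all genes, and the median was 0.52. Without the replicate block the median was 0.44. The summed normalized counts of the list were 10800, 90214, 193517 and 54316 in WT replicates 1, 2, 3 and 5, and 33598, 108107, 215258 and 130153 in CD1d-KO replicates 1, 2, 3 and 5. Replicate 1 was lowest and replicate 3 highest in both genotypes, as for *Nos2*. The rise was uneven over the pairs. The mean log2 level of the list went from 4.67 in WT to 6.46 in CD1d-KO in pair 1, the largest rise. It went from 7.19 to 8.44 in pair 5, but only from 7.87 to 8.06 in pair 2, and pair 3 also rose little. The CD1d-KO library of pair 1 is the one with 80 *Cd1d1* counts. Whether its rise goes with the loss of CD1d was not tested. Over the 8 libraries, the mean log2 level of the list had r = 0.86 with *Nos2*, 0.90 with *Acod1* and 0.85 with *Gch1*. It had 0.85 with *Slc7a2*, -0.38 with *Arg1* and -0.62 with *Asl*, all as a description of 4 pairs. Both genotypes were pooled, so the choice of *Nos2* for its rise bears on its r with the list. The list was also chosen with earlier results known. *Acod1* thus moved with the interferon-stimulated genes across mice and yet showed no difference between the genotypes that the test resolved.

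Genes whose levels over the 8 libraries were most like those of the members were sought among 9941 genes with a mean of at least 50 normalized counts, by Pearson's r of log2 CPM. For *Nos2* these were *Tmem140* (r = 0.99), *Cd69* (0.98), an early activation antigen of lymphocytes, and *Mapre2* (0.98), with *Irak1* at the opposite end (-0.98). For *Acod1* they were *Wsb2* (0.998), *Gm49339* (0.98) and *Itpk1* (0.98), with *Stard7* lowest (-0.97). For *Arg1* they were *Kpna1* (0.97), *Blvrb* (0.95) and *Ptges3* (0.95), with the interferon-inducible *Gbp2b* lowest (-0.95), and for *Gch1* they were *9130208D14Rik*, *Tmem251* and *Saraf* (0.99 each), with *Msh6* lowest (-0.99). Without replicate 1 the 3 closest genes shared 0 with this list for *Nos2*, *Arg1* and *Gch1* and 1, *Wsb2*, for *Acod1*. The named genes thus depend on a few libraries. Both genotypes were pooled, so the choice of *Nos2* for its rise also bears on the genes named for it.

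The cell type was checked against marker genes. The 8 markers of large peritoneal macrophages, such as *Gata6* and *Timd4*, summed to 117834 to 130627 normalized counts in WT and 125438 to 145461 in CD1d-KO pMacs. The 8 markers of small peritoneal macrophages and dendritic cells summed to 6749 to 12964 and 4547 to 16540, and the 6 B cell markers to 2866 to 7760 and 1865 to 12945. B cell RNA was thus present in all 8 libraries. Its mean log2 level had r = 0.15 with *Nos2*, -0.56 with *Arg1*, -0.53 with *Arg2*, 0.29 with *Ass1* and -0.36 with *Asl*. With *Slc7a2* it had r = -0.50, with *Odc1* 0.24, with *Gch1* -0.41 and with *Acod1* -0.36. The 6 T and NK cell markers summed to 60.2 to 140 in WT and 37.8 to 228 in CD1d-KO, the 6 neutrophil markers to 54.1 to 91.3 and 84.6 to 110, and *Ncr1*, *Nkg7*, *S100a9*, *Ly6g*, *Retnlg* and *Cxcr2* had at most 3 counts in every library. Eosinophil markers (4 genes) summed to 15.8 to 41.9 and 18.3 to 39.6, mast cell markers (5 genes) to 74.9 to 210 and 47.3 to 152, and mesothelial markers (5 genes) to at most 15.2. The part of other cells in the values of the 9 genes was not tested. Fewer cells of a type and less RNA for each cell cannot be told apart in bulk libraries.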

How the data were processed

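Single-end reads came from polyA libraries, 1 for each of 8 mice (4 of each genotype). They were trimmed by the authors (Cutadapt), aligned to GRCm38 (STAR 2.5.2a) and quantified for Ensembl genes (RSEM 1.3.0). The strand setting is not given in the sources used here. The deposited values were expected counts, which RSEM estimates and which need not be whole, and TPM, which RSEM scales by transcript length to the same total in each library.

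Expected counts were rounded, filtered with filterByExpr (13040 of 48795 gene IDs kept) and normalized by TMM. The quasi-likelihood test of edgeR 4.0.16 (R 4.3.3) was fitted over all genes with genotype and replicate number, with Benjamini-Hochberg adjustment over all genes tested. Between 13698864 and 19059432 reads per library limit the precision of scarce genes. Replicate numbers come from the labels, and same-numbered libraries deviated together from their genotype means (correlations 0.487, 0.387, 0.505 and 0.207 for numbers 1, 2, 3 and 5, beside a highest correlation with another number of -0.0148, 0.0254, 0.0586 and 0.22, so that number 5 was no closer to its own partner). The libraries come from separate mice, and no 2 libraries agreed within sampling noise (smallest chi-square per degree of freedom 13.2 over 28 comparisons). Alternatives were DESeq2 1.42.0, other scalings and filters, no replicate block, limma 3.58.1 on log2(TPM + 1) and leaving out each pair.

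Correlations used log2 CPM with a prior count of 2. Of the gene IDs, 99.26% were found in GENCODE M21 (GRCm38), which gave gene positions. The genes named were the 9 members, *Cd1d1*, in each list the called genes or else the 3 with the smallest p, and the 3 genes most like and the 1 least like *Nos2*, *Acod1*, *Arg1* and *Gch1*. One gene that this rule names is not reported here. The members and lists were chosen with earlier results of these data known. The fit was tested on simulated data.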

Additional observations from a re-analysis of the deposited data

Results flagged for a closer look

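Within each genotype, the 4 libraries were checked for a value far from the other 3, for the 9 genes and *Cd1d1*, in 20 groups in all, of which 2 stood out. Chance flags about 1 in 20 groups. *Arg1* had 3254 normalized counts in WT replicate 5, where the other WT libraries had 7002 to 7271, a gap that took 0.933 of the range of the group. *Cd1d1* had 60.7 normalized counts in the library labelled CD1d-KO replicate 1, where the other CD1d-KO libraries had 0 to 1.14, a gap of 0.981 of the range.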

How the results depend on the processing

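With the replicate number as a block, 5 genes were called over the whole table. DESeq2 called 104 (71 higher and 33 lower in CD1d-KO), the test without a filter on counts 236 (175 and 61), and an adjusted p threshold of 0.05 gave 48 (33 and 15). Without the replicate block 3 genes were called, and limma-trend on log2(TPM + 1) called 3. Leaving out each pair gave 3 to 22 genes, with 3 without replicate 3, 3 without replicate 5 and 22 without replicate 2. The cause of these moves was not tested. Of the 8 genes tested, *Arg1* alone passed under any of the 12 alternatives, without the filter on counts (log2 fold change -0.93), and its adjusted p was 0.0389 without replicate 2. Without the block the adjusted p of the 8 tested genes was 0.997. Values near 0 changed sign. When each pair was left out in turn, *Asl* ran from -0.12 to 0.031 (highest without replicate 5), *Gch1* from -0.0041 (without replicate 2) to 0.071 and *Acod1* from -0.054 (without replicate 2) to 0.068, with -0.010 without replicate 5. *Acod1* was also -0.0012 with DESeq2, -0.011 with upper quartile factors, -0.0060 without the filter and -0.012 without the block. *Arg1*, *Arg2*, *Ass1*, *Slc7a2* and *Odc1* kept their direction under all 12 alternatives. So did *Nos2*, but it was picked for its direction in these same libraries, so that is a description only. The median of the alternative activation genes was -0.36 with at least 10 counts in every library and -0.38 without replicate 2. Without the filter on counts 13 interferon-stimulated genes, 3 factors, 2 classical and 2 alternative activation genes and 2 genes of arginine transport were called, and without replicate 2 there was 1 classical activation gene. Leaving out each pair, the median ran from 0.52 to 0.97 for the interferon-stimulated genes (0.44 without the replicate block), from -0.19 to -0.04 for arginine transport (lowest without replicate 2, highest without replicate 5), from -0.38 to -0.14 for alternative activation and from -0.08 to -0.01 for the citrate steps (highest without replicate 5). Upper quartile factors moved the median of all genes by -0.01 and DESeq2 size factors by 0.004. The order of the members by TPM in WT was the same over the genes tested only.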
